A study of Mus musculus with 16 samples.

Results

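The Id genes and a set of BMP signalling genes were examined in cultured mouse airway epithelium. The set was fixed as 10 symbols: Id1, Id2, Id3 and Id4, the ligands Bmp4 and Bmp7, the receptor Bmpr1a, the pseudoreceptor Bambi, and the inhibitory Smads Smad6 and Smad7. All 10 were measured, by 22 of the 34945 probe sets that carry 1 gene symbol, among 18193 genes. Where a gene has several probe sets, the brightest on average over the 16 arrays leads its account and the others are described beside it. The lead probe sets of 9 of the 10 genes lay above background, and that of Bmp7 did not. Background was 2.97 on the log2 scale, the 95th percentile of spiked-in control transcripts on arrays from which they were absent.

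The cultures were airway epithelium from C57BL/6 mice kept at an air-liquid interface, which lets airway cells form a layered, ciliated sheet, and RNA of each was hybridised to 1 array. The groups were Mmp7-/- scratched, Mmp7-/- uninjured (both called Mmp7-null here), wild-type scratched and wild-type uninjured, with 4 cultures in each. Scratched cultures received 3 parallel scratches with a pipet tip, and all cultures, uninjured ones included, spent the last 24 hours before RNA isolation without serum. The labels do not give the interval between scratching and RNA isolation, the age of the mice, the design of the null allele or which cultures shared an animal, so p-values measure only the spread between these cultures, which may be technical.

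Bone morphogenetic proteins (BMPs) are secreted ligands that bind pairs of type I and type II receptors, and the activated receptors phosphorylate Smad1, Smad5 and Smad9, which enter the nucleus with Smad4. The Id genes are direct targets of these Smads in many cell types. Id proteins have a helix-loop-helix domain but no DNA-binding region, so they sequester E proteins and other basic helix-loop-helix factors and delay differentiation. Smad6 and Smad7 are themselves induced by the pathway and block the receptors, Bambi is a receptor-like protein without a kinase, and in the airway BMP signals are known to restrain the growth of basal cells, the stem cells of this epithelium.

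Mmp7 could not serve as a check of the genotype labels. Its probe set read between 2.13 and 2.59 in the 8 Mmp7-null arrays and between 2.13 and 2.25 in the 8 wild-type arrays, all below background. Of 7 epithelial markers 6 were above background in every group (Epcam, Cdh1, Krt8, Krt18, Krt19 and Sox2), while the lung epithelial factor Nkx2-1 averaged 2.69 and was not. Spiked-in controls divided the arrays into 3 sets, named for the control present: Lys (4 Mmp7-null arrays), Phe (4 Mmp7-null and 2 wild-type arrays) and Trpn (6 wild-type arrays). The labels do not say what these sets are. They are called technical sets here, which is an inference from the controls alone. Mmp7-null and wild-type arrays meet only in the Phe set. Each scratch comparison was balanced within the sets. 3 arrays stood apart in signal quality. Mmp7-null scratched 1 and wild-type scratched 3 had the lowest upper quartiles of log2 signal (6.89 and 6.84), and wild-type scratched 4 had the widest log2 gap between the 3′ and 5′ ends of the actin control (2.62, with 1.53 to 1.93 on the other 15 arrays). Calls of the 10 genes and of named pathway genes that change without them are given both ways.

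Windows of 250 bases upstream of the annotated transcript start are shown for the Id genes in the RefSeq promoter table (build GRCm38.p6), because all 4 Id genes fell on scratching in wild-type cultures. They run 5′ to 3′ on the strand of the gene. Capitals mark GGCGCC, a GC-rich element that Smad1 and Smad5 are known to bind, and GTCT with its reverse complement AGAC, the core of the Smad binding element. Id1 was not matched in the table, which held 6 of the 10 genes.
Id2 (chr12:25096093-25096342, minus strand): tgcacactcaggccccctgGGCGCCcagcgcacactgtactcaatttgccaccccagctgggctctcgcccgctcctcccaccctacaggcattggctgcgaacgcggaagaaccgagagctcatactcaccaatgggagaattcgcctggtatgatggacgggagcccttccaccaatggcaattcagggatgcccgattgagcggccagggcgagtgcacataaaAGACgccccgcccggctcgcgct
Id3 (chr4:136143572-136143821, plus strand): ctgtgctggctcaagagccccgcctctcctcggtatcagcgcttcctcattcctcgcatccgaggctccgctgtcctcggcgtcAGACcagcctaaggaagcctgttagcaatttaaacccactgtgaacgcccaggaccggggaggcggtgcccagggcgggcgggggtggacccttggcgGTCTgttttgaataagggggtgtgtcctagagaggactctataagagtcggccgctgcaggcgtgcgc
Id4 (chr13:48260866-48261115, plus strand): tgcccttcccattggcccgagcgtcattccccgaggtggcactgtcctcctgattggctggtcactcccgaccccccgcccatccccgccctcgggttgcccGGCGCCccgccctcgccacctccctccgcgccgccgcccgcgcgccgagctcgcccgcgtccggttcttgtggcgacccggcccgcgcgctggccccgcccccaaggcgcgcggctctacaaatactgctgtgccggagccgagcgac

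The Id2 window held 1 GGCGCC, whose first base lay 231 bases before the start, and 1 GTCT core at 23 bases. The Id3 window held no GGCGCC and 2 GTCT cores, at 166 and 68 bases. The Id4 window held 1 GGCGCC at 148 bases and no GTCT core. On either strand GGCGCC occurred in 9.59% and GTCT in 82.9% of 32851 such windows in the table, so the core is common anywhere. These matches describe the letters in the windows, and binding was not measured.

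The comparison of scratched with uninjured Mmp7-null cultures asked how injury changes these genes when Mmp7 is missing. Id1, Id2 and Id3 fell, 3 of the 10 genes, and none of the other 7 passed the test. Over all genes 4.72% passed, 2.27% higher and 2.45% lower, and 12.8% had groups that did not overlap. The median change of the 10 genes was -0.23, beside -0.02 over all genes.

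Id3 fell the most of the 10. It read 4.61, 5.39, 5.41 and 5.57 in scratched Mmp7-null cultures, against 6.06, 6.41, 6.26 and 6.80 in uninjured ones. Every scratched array lay below every uninjured one. The log2 change was -1.14 (SE 0.19, adjusted p = 0.0041), a 2.2-fold lower level.

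Id1 read 8.75, 8.92, 9.14 and 8.92 in scratched Mmp7-null cultures, against 9.26, 9.46, 9.69 and 9.62 in uninjured ones. The groups did not overlap, and the change was -0.58 (SE 0.12, adjusted p = 0.014). Id2, which in mice is also needed for innate lymphoid cells, read 10.67, 10.87, 11.11 and 10.75 in scratched cultures, against 11.31, 11.38, 11.19 and 11.29 in uninjured ones. Again the groups did not overlap, and Id2 changed by -0.44 (SE 0.08, adjusted p = 0.0082).

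The fourth family member, Id4, which is known to act in neural and mammary progenitors, was less clear. It read 9.06, 9.29, 9.31 and 9.39 in scratched Mmp7-null cultures, against 9.65, 9.50, 9.58 and 9.56 in uninjured ones. The arrays did not overlap, but the change of -0.31 (SE 0.09) did not pass (adjusted p = 0.064). Its second brightest probe set gave -0.46 (adjusted p = 0.009 over all probe sets, of which 2.64% passed), and its dimmest gave -0.25 (adjusted p = 0.18). The lead probe set passed when wild-type scratched replicate 3 (adjusted p = 0.036) or replicate 4 (adjusted p = 0.019) was left out of the shared estimate of spread. Id4 passed under 8 of 29 alternative runs, which include a filter on dim genes, averaged probe sets, array weights and other scalings.

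The fit on the 8 Mmp7-null arrays alone, with fewer degrees of freedom, left none of the 10 genes past the threshold in limma. Its adjusted p was 0.056 for Id1, 0.065 for Id2 and 0.064 for Id3. An unadjusted p under 0.05 held for 4 of the 10 and for 3065 of all 18193 genes in that fit. Without the 3 arrays that stood apart, Id1 was at -0.52 (adjusted p = 0.05, just above the threshold), Id2 at -0.38 (adjusted p = 0.02), Id3 at -0.92 (adjusted p = 0.0079) and Id4 at -0.24 (adjusted p = 0.009). Id2 also did not pass as the mean of its probe sets (-0.27, adjusted p = 0.13).

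The same comparison in wild-type cultures found more of the set lower. Id1, Id2, Id3, Id4, Bmp4 and Smad6 fell, 6 of the 10 genes, none rose and 4 did not pass. Over all genes 4.85% passed, 2.55% higher and 2.30% lower, and 10% had groups that did not overlap. The median change of the 10 genes was -0.51, beside 0.01 over all genes.

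Id3 read 6.62, 6.70, 6.63 and 6.56 in scratched wild-type cultures, against 7.62, 7.67, 7.60 and 7.99 in uninjured ones, with a wide gap between the groups. Its change was -1.09 (SE 0.19, adjusted p = 0.0037), 2.13-fold lower. Id1 read 9.47, 9.58, 9.45 and 9.29 in scratched cultures, against 9.96, 9.98, 10.21 and 10.42 in uninjured ones. The groups did not overlap, and the change was -0.69 (SE 0.12, adjusted p = 0.0034).

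Id4 read 8.93, 8.88, 8.70 and 9.19 in scratched wild-type cultures, against 9.71, 9.84, 9.75 and 9.78 in uninjured ones. The change was -0.84 (SE 0.09, adjusted p = 5.9e-05), and the other Id4 probe sets gave -0.87 (adjusted p = 4.3e-05) and -0.63 (adjusted p = 0.001). All 3 Id4 probe sets thus fell, with no overlap between groups. Id2 read 11.16, 11.26, 11.04 and 10.99 in scratched cultures, against 11.78, 11.68, 11.79 and 11.68 in uninjured ones, a change of -0.62 (SE 0.08, adjusted p = 0.00051). Its second brightest probe set gave -0.77 (adjusted p = 0.0085) and its dimmest gave -1.38 (adjusted p = 0.00018). In the fit over all probe sets 3.02% passed. Without the 3 arrays that stood apart, Id1, Id2, Id3 and Id4 still passed, at -0.62, -0.53, -1.06 and -0.87.

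**Figure D1:**
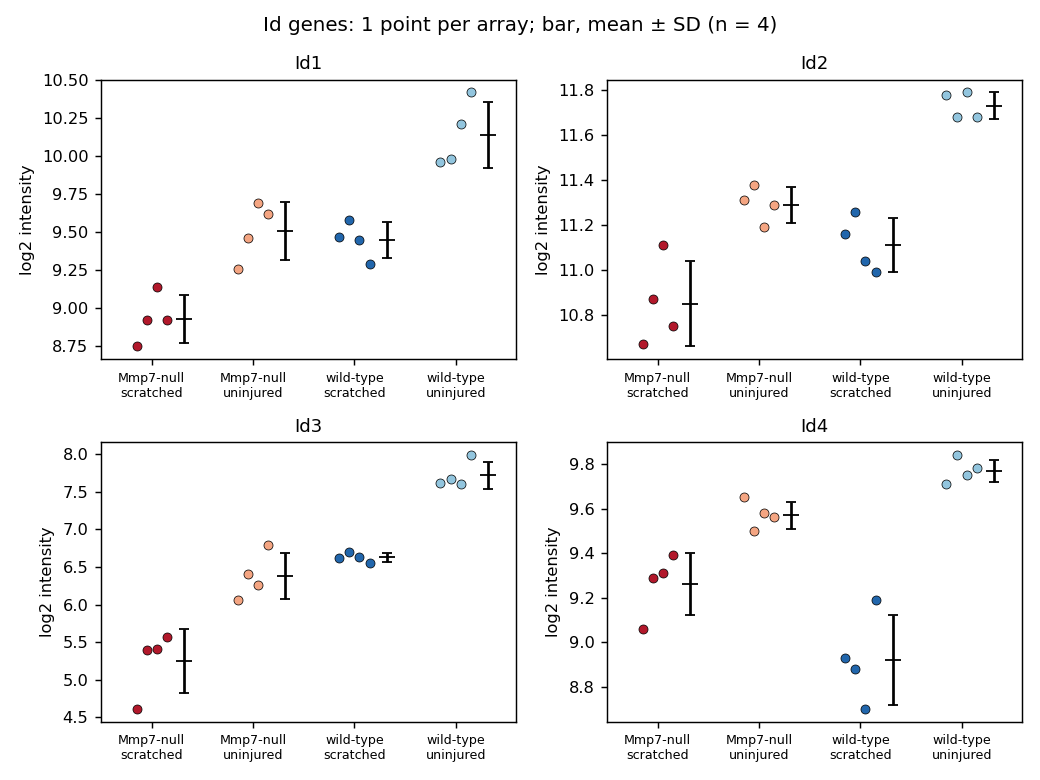
Log2 intensity of the lead probe sets of Id1, Id2, Id3 and Id4 (vertical axes, each with its own range) in the 4 groups, with 1 point per array and the mean ± SD of 4 arrays beside it. In each genotype the scratched arrays of all 4 genes lie below the uninjured ones, and the wild-type uninjured cultures have the highest mean in every panel (10.14 for Id1, 11.73 for Id2, 7.72 for Id3 and 9.77 for Id4).

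The ligand Bmp4 fell with the Id genes in wild-type cultures. It read 6.98, 6.82, 6.78 and 6.90 in scratched cultures, against 7.67, 7.94, 7.58 and 7.63 in uninjured ones. The groups did not overlap, and the change was -0.84 (SE 0.17, adjusted p = 0.011). It did not pass without the 3 arrays that stood apart (-0.81, adjusted p = 0.059).

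Smad6, the inhibitory Smad that acts mainly on BMP receptors, read 6.47, 6.62, 6.42 and 6.42 in scratched wild-type cultures, against 7.02, 6.91, 6.71 and 6.87 in uninjured ones. The groups did not overlap, and the change was -0.40 (SE 0.09, adjusted p = 0.02). It did not pass when wild-type uninjured replicate 1 (adjusted p = 0.066) or 2 (adjusted p = 0.055), or wild-type scratched replicate 3 (adjusted p = 0.057), was left out.

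In Mmp7-null cultures Bmp4 and Smad6 did not pass. Bmp4 read 6.06, 6.42, 6.66 and 6.50 in scratched Mmp7-null cultures, against 6.41, 6.49, 7.11 and 7.18 in uninjured ones, and the groups overlapped (-0.39, adjusted p = 0.26). The uninjured arrays split by technical set: those of the Lys set read 6.41 and 6.49, and those of the Phe set 7.11 and 7.18. Smad6 read 6.03, 6.43, 6.48 and 6.42 in scratched Mmp7-null cultures, against 6.42, 6.45, 6.42 and 6.43 in uninjured ones (-0.09, adjusted p = 0.72). Only replicate 1 of the scratched group stood below the rest.

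The other inhibitory Smad, Smad7, acts on both TGF-beta and BMP receptors, and its probe sets disagreed. The lead probe set (of a type whose probes may also match other transcripts) averaged 6.89 ± 0.04 in scratched and 6.81 ± 0.09 in uninjured Mmp7-null cultures, and 7.05 ± 0.15 in scratched and 6.98 ± 0.08 in uninjured wild-type cultures (SD, n = 4). Its changes on scratching were 0.08 in Mmp7-null cultures (95% interval -0.07 to 0.23) and 0.07 in wild-type cultures (95% interval -0.08 to 0.22). The other probe set was at 0.33 in Mmp7-null cultures (adjusted p = 0.19) and at -0.30 in wild-type cultures (adjusted p = 0.25). Neither probe set passed in either genotype.

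Bmpr1a, a type I BMP receptor, showed no change past the threshold by any of its 6 probe sets, of which 4 were above background. Its lead probe set averaged 9.83 ± 0.14 in scratched and 9.98 ± 0.05 in uninjured Mmp7-null cultures, and 9.86 ± 0.14 in scratched and 9.93 ± 0.07 in uninjured wild-type cultures. The intervals of its scratch changes were -0.31 to 0.01 in Mmp7-null and -0.22 to 0.09 in wild-type cultures. Bambi averaged 5.83 ± 0.17 in scratched and 5.81 ± 0.34 in uninjured Mmp7-null cultures, and 5.51 ± 0.39 in scratched and 5.44 ± 0.13 in uninjured wild-type cultures. Its intervals were wider, -0.38 to 0.42 in Mmp7-null and -0.33 to 0.47 in wild-type cultures. All 3 Bmp7 probe sets were below background on all 16 arrays, at means of 2.47, 2.02 and 1.61, so no change in Bmp7 could be measured.

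**Figure D2:**
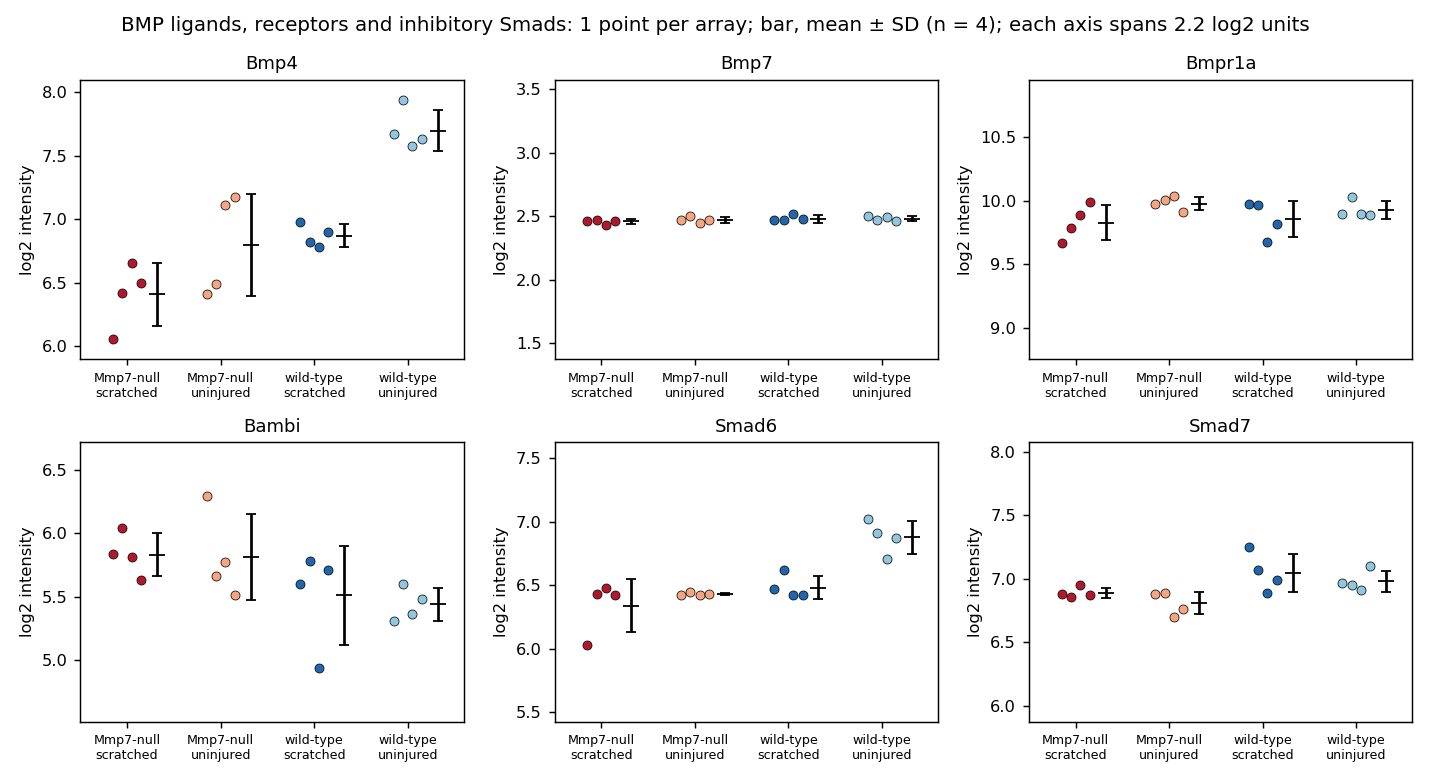
Log2 intensity of the lead probe sets of Bmp4, Bmp7, Bmpr1a, Bambi, Smad6 and Smad7 in the 4 groups, with 1 point per array and the mean ± SD of 4 arrays; each vertical axis spans the same number of log2 units. Bmp4 and Smad6 are highest in wild-type uninjured cultures (means 7.70 and 6.88), and Bmp7 lies at 2.46 to 2.48 in every group.

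Markers of basal cells moved in the same direction on scratching. Of 6 basal markers 2 fell in Mmp7-null cultures (Krt5 by 0.45 and Krt15 by 0.45 on the log2 scale) and 2 fell in wild-type cultures (Krt5 by 0.80 and Trp63 by 0.48). The log2 of their summed level ran from 13.84 to 14.15 in scratched and from 14.38 to 14.52 in uninjured Mmp7-null cultures. In wild-type cultures it ran from 14.13 to 14.21 in scratched and from 14.28 to 14.46 in uninjured ones. Of 5 goblet cell markers 2 rose in each genotype (Muc5b and Agr2), with summed log2 levels of 10.90 to 11.48 in scratched and 9.21 to 9.97 in uninjured Mmp7-null cultures, and of 11.96 to 12.11 in scratched and 9.27 to 9.54 in uninjured wild-type cultures. Agr2 rose by 1.44 in Mmp7-null and by 2.54 in wild-type cultures. The difference between scratch responses passed for 1 of the 5 goblet markers, with the lower response in Mmp7-null cultures. The part of both marker lists in the Id results was not tested, and in RNA of whole cultures fewer cells of a type and less RNA per cell cannot be told apart. Of 8 endothelial markers, a cell type rich in Id1 and Id3, 1 was above background in each group (Egfl7), while Pecam1 and Cdh5 averaged 2.07 and 2.29. Of 7 leukocyte markers 2 or 3 were above background in each group, and the pan-leukocyte marker Ptprc averaged 2.36. The macrophage marker Cd68 rose by 1.03 on scratching in wild-type cultures (adjusted p = 0.00041), and none of the 7 passed in Mmp7-null cultures. The other leukocyte markers did not pass in wild-type cultures either, among them Ptprc (0.02), Adgre1 (-0.01) and Csf1r (0.05). Cd68 averaged 6.94 and the next brightest, Csf1r, 3.78, so the summed leukocyte level mainly follows Cd68. Cd68 was lower in scratched Mmp7-null than in scratched wild-type cultures (-0.92, adjusted p = 0.0012). The difference between its scratch responses also passed (-1.12, adjusted p = 0.043). The log2 of the summed leukocyte level ran from 6.98 to 7.32 in scratched and from 7.17 to 7.25 in uninjured Mmp7-null cultures, and from 7.85 to 8.09 in scratched and from 7.02 to 7.28 in uninjured wild-type cultures. The part of these markers in the results was not tested. Of 9 fibroblast and smooth muscle markers Dcn rose on scratching in Mmp7-null cultures (1.23), and Dcn (1.58) and Acta2 (1.07) rose in wild-type ones. Of these 9 markers 3 or 4 were above background, with summed log2 levels of 8.60 to 9.35 in scratched and 7.80 to 8.47 in uninjured Mmp7-null cultures, and of 7.87 to 8.42 in scratched and 6.95 to 7.35 in uninjured wild-type cultures, and their part was not tested.

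The difference between the genotypes' scratch responses was tested directly as an interaction, Mmp7-null response minus wild-type response. None of the 10 genes passed in limma (0.132% of all genes did). An unadjusted p under 0.05 held for 2 of the 10, Id4 and Smad6, and for 1417 of all 18193 genes. For Id3 the difference was -0.04 with a 95% interval of -0.62 to 0.54, and for Id1 it was 0.12 with an interval of -0.24 to 0.48. For Id2 it was 0.18, with an interval of -0.08 to 0.43. For Bmp4 it was 0.45 (-0.07 to 0.97) and for Smad6 0.30 (0.03 to 0.57, adjusted p = 0.58).

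Id4 came closest, at 0.53 (SE 0.12, interval 0.26 to 0.80, adjusted p = 0.15). Its other probe sets gave 0.41 (adjusted p = 0.36) and 0.39 (adjusted p = 0.52), with the same sign. The Id4 difference passed under 4 alternative treatments of the arrays or probe sets and without wild-type scratched replicate 4 (0.62, adjusted p = 0.037) or without all 3 arrays that stood apart (0.62, adjusted p = 0.0085). Bmp4 and Smad6 passed in wild-type cultures and not in Mmp7-null ones, but their responses were thus not shown to differ between genotypes.

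The comparison of Mmp7-null with wild-type cultures asked how the loss of Mmp7 bears on these genes. Among uninjured cultures Id1, Id2, Id3, Bmp4 and Smad6 were lower in Mmp7-null ones, 5 of the 10 genes, and none was higher. Over all genes 4.79% passed, 2.30% higher and 2.50% lower. The median of the 10 genes was -0.32, beside -0.01 over all genes. This comparison and the wild-type scratch comparison share the 4 wild-type uninjured arrays, which hold the highest levels of these 5 genes, so their results are not independent.

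Id3 averaged 6.38 ± 0.31 in uninjured Mmp7-null and 7.72 ± 0.18 in uninjured wild-type cultures (SD, n = 4 each). The difference was -1.34 (SE 0.19, adjusted p = 0.0013), 2.53-fold lower. Bmp4 was lower by the next largest amount, at 6.80 ± 0.40 in uninjured Mmp7-null and 7.70 ± 0.16 in uninjured wild-type cultures (-0.91, SE 0.17, adjusted p = 0.0074). Id1 differed by -0.64 (adjusted p = 0.0071), Smad6 by -0.45 (adjusted p = 0.0096) and Id2 by -0.44 (adjusted p = 0.0079). None of these 5 genes overlapped between the groups, as was so for 11.7% of all genes. The lead probe sets of Id4 and Smad7, which did not pass, did not overlap either.

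Id4 differed by -0.20 and did not pass (adjusted p = 0.30; 0.014 without the 3 arrays that stood apart), and its other probe sets gave 0.05 and 0.02. Smad7 differed by -0.18 (adjusted p = 0.21) by its lead probe set and by -0.34 (adjusted p = 0.011) with its probe sets averaged. Its second probe set was lower in uninjured Mmp7-null cultures, at 6.07, 6.24, 6.38 and 6.40, against 6.61, 6.70, 6.87 and 6.90 in uninjured wild-type ones (-0.50, adjusted p = 0.038 over all probe sets, of which 2.78% passed). Bambi was at 0.37 (adjusted p = 0.38, interval -0.03 to 0.77) and Bmpr1a at 0.05 (adjusted p = 0.98, interval -0.11 to 0.21).

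Among scratched cultures Id1 and Id3 were lower and Id4 was higher in Mmp7-null than in wild-type ones, and 7 genes did not pass. Over all genes 6.21% passed, 3.29% higher and 2.92% lower, and 32.7% had groups that did not overlap. The median of the 10 genes was -0.15 (-0.04 over all genes). Id3 averaged 5.25 ± 0.43 in scratched Mmp7-null and 6.63 ± 0.06 in scratched wild-type cultures, a difference of -1.38 (SE 0.19, adjusted p = 0.00078), 2.60-fold lower. Id1 averaged 8.93 ± 0.16 in scratched Mmp7-null and 9.45 ± 0.12 in scratched wild-type cultures (-0.52, SE 0.12, adjusted p = 0.018). Id1 did not pass without Mmp7-null scratched replicate 1 (adjusted p = 0.054) or wild-type scratched replicate 2 (adjusted p = 0.055), nor without the 3 arrays that stood apart (-0.54, adjusted p = 0.088), where Id3 was at -1.20 (adjusted p = 0.0058).

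Id4 ran the other way, at 9.26 ± 0.14 in scratched Mmp7-null and 8.92 ± 0.20 in scratched wild-type cultures (0.34, SE 0.09, adjusted p = 0.037). The arrays of the lead probe set overlapped between the groups, and the call was lost on leaving out any of 10 single arrays, with adjusted p from 0.05 to 0.10. Its other probe sets gave 0.46 (adjusted p = 0.006) and 0.40 (adjusted p = 0.02) with no overlap, where 3.61% of all probe sets passed. Id2 was at -0.26 (adjusted p = 0.088), and Bmp4 was at -0.46 with no overlap (adjusted p = 0.14).

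Genotype and technical set are largely aligned, so these differences were recomputed in a model with a term for the set, and again in the Phe arrays alone. With the block none of the 10 genes passed in limma between genotypes in either state. Unadjusted p under 0.05 held for 6 of the 10 among uninjured and 4 of the 10 among scratched cultures. Over all 18193 genes it held for 1679 among uninjured and 2260 among scratched cultures. Id3 was at -1.13 uninjured (adjusted p = 0.097) and -1.18 scratched (adjusted p = 0.052) with the block, and at -1.09 and -1.22 within the Phe set, where 2 Mmp7-null arrays meet 1 wild-type array. Id1 was at -0.43 uninjured and -0.32 scratched with the block, and Bmp4 at -0.71 uninjured. Within the Phe set Id1 was at -0.31 uninjured and -0.44 scratched, and Bmp4 at -0.52 uninjured, each nearer to 0 than over all arrays (-0.64, -0.52 and -0.91). Others lay further from 0 there than over all arrays. Smad6 was at -0.60 (-0.45 over all arrays) and Id2 at -0.54 (-0.44) uninjured, and Id4 at 0.37 (0.34) scratched. The direction of each called genotype difference was the same in the Phe set. The contribution of the technical sets to these differences cannot be told apart from genotype.

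The scratch calls of the Id genes held with the same block. Id3 was at -1.14 in Mmp7-null (adjusted p = 0.0064) and -1.09 in wild-type cultures (adjusted p = 0.0054). Within the sets, the Id3 scratch change was -1.15 in the Lys and -1.13 in the Phe arrays of Mmp7-null cultures (2 against 2 each; adjusted p = 0.094 and 0.19). It was -1.12 in the Trpn arrays (3 against 3; adjusted p = 0.04) and -1.01 in the Phe pair (1 against 1) of wild-type cultures. The Id3 change lay between -1.15 and -1.01 in the 4 subsets, and only the Trpn arrays passed on their own. Id2 in Mmp7-null cultures was at -0.63 in the Lys and -0.25 in the Phe arrays. Bmp4 in Mmp7-null cultures was at -0.17 in the Lys and -0.60 in the Phe arrays.

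Markers of multiciliated cells moved with genotype in both states. Of 6 such markers 5 were higher in uninjured and 5 in scratched Mmp7-null cultures than in wild-type ones. The log2 of their summed level ran from 12.36 to 12.70 in uninjured Mmp7-null and from 11.87 to 12.14 in uninjured wild-type cultures. In scratched cultures it ran from 12.44 to 12.74 in Mmp7-null and from 11.68 to 12.11 in wild-type ones. Of 5 alveolar type 1 markers 2 were lower in uninjured Mmp7-null cultures (Ager at -2.29 and Hopx at -0.34) and 3 were lower in scratched ones (Ager at -2.35, Hopx at -0.66 and Aqp5 at -0.41). Their summed log2 level ran from 14.21 to 14.47 in uninjured Mmp7-null and from 14.62 to 14.67 in uninjured wild-type cultures, and from 13.94 to 14.23 in scratched Mmp7-null and from 14.49 to 14.70 in scratched wild-type cultures. Of 4 alveolar type 2 markers Sftpc was higher in Mmp7-null cultures, by 1.5 uninjured and 1.8 scratched, and Abca3 was lower in scratched ones (-0.43). Their summed log2 level ran from 9.31 to 9.49 in uninjured Mmp7-null and from 9.15 to 9.33 in uninjured wild-type cultures, and from 9.40 to 9.56 in scratched Mmp7-null and from 9.37 to 9.60 in scratched wild-type cultures. Of the 9 fibroblast and smooth muscle markers Acta2 was higher in Mmp7-null cultures, by 1.37 uninjured and 1.1 scratched, and Dcn was higher in uninjured ones (1.00). Of the basal markers Krt5 was lower in uninjured (-0.36) and Krt14 higher in scratched (0.53) Mmp7-null cultures, and of the goblet markers Agr2 was lower in scratched ones (-0.74). The part of all these markers in the genotype differences of the Id genes was not tested.

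**Figure D3:**
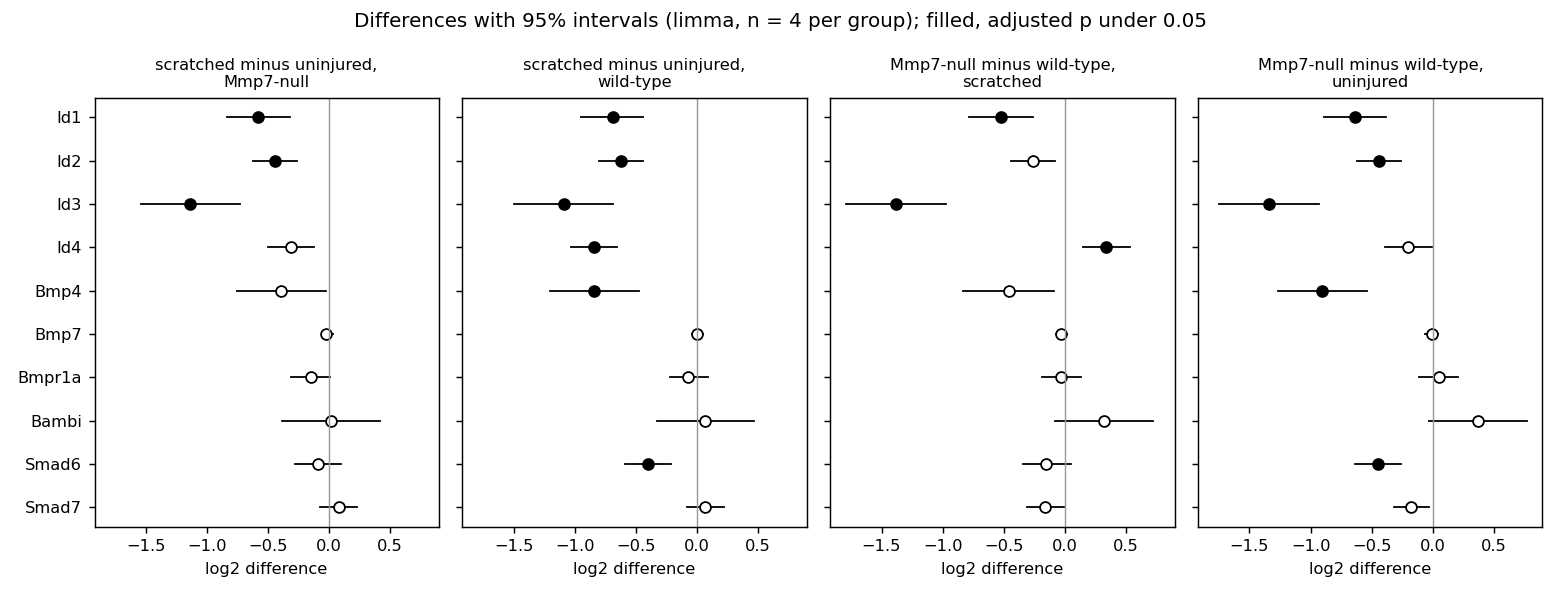
Log2 differences of the 10 genes (horizontal axes, log2 units) in the 4 comparisons, with 95% intervals from limma (n = 4 per group); filled points passed at an adjusted p under 0.05. Id3 lies between -1.38 and -1.09 in all 4 panels, while Bmp7, Bmpr1a, Bambi and Smad7 pass in none.

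Across the 4 groups the levels of Id1 ran, low to high, from scratched Mmp7-null (8.93) through scratched wild-type (9.45) and uninjured Mmp7-null (9.51) to uninjured wild-type cultures (10.14). The middle pair overlapped, and the outer groups stood clear of it. Id3 had the lowest and highest groups in common with Id1, and its middle pair, uninjured Mmp7-null (6.38) and scratched wild-type (6.63), also overlapped. Bmp4 and Id2 had scratched Mmp7-null lowest and uninjured wild-type highest as well. The exception was Id4, lowest in scratched wild-type cultures (8.92). By its lead probe set uninjured Mmp7-null (9.57) lay just below uninjured wild-type (9.77). By its other probe sets uninjured Mmp7-null (9.61 and 6.21) lay just above uninjured wild-type (9.56 and 6.19).

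The dimmest Id2 probe set differed from the brighter pair. It read 3.91, 4.41, 4.17 and 4.54 in wild-type uninjured cultures. In the other 12 arrays it lay between 2.56 and 3.30, and 10 of those were below background. Its scratch response was 0.09 in Mmp7-null cultures (adjusted p = 0.80) and -1.38 in wild-type ones, and the difference of 1.47 passed (SE 0.22, adjusted p = 0.025 over all probe sets, of which 0.0687% passed). Since 3 of the 4 groups averaged below background, the fitted sizes for this probe set are limited by it, and the brighter Id2 probe sets gave differences of 0.18 and 0.32 that did not pass.

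**Figure D4:**
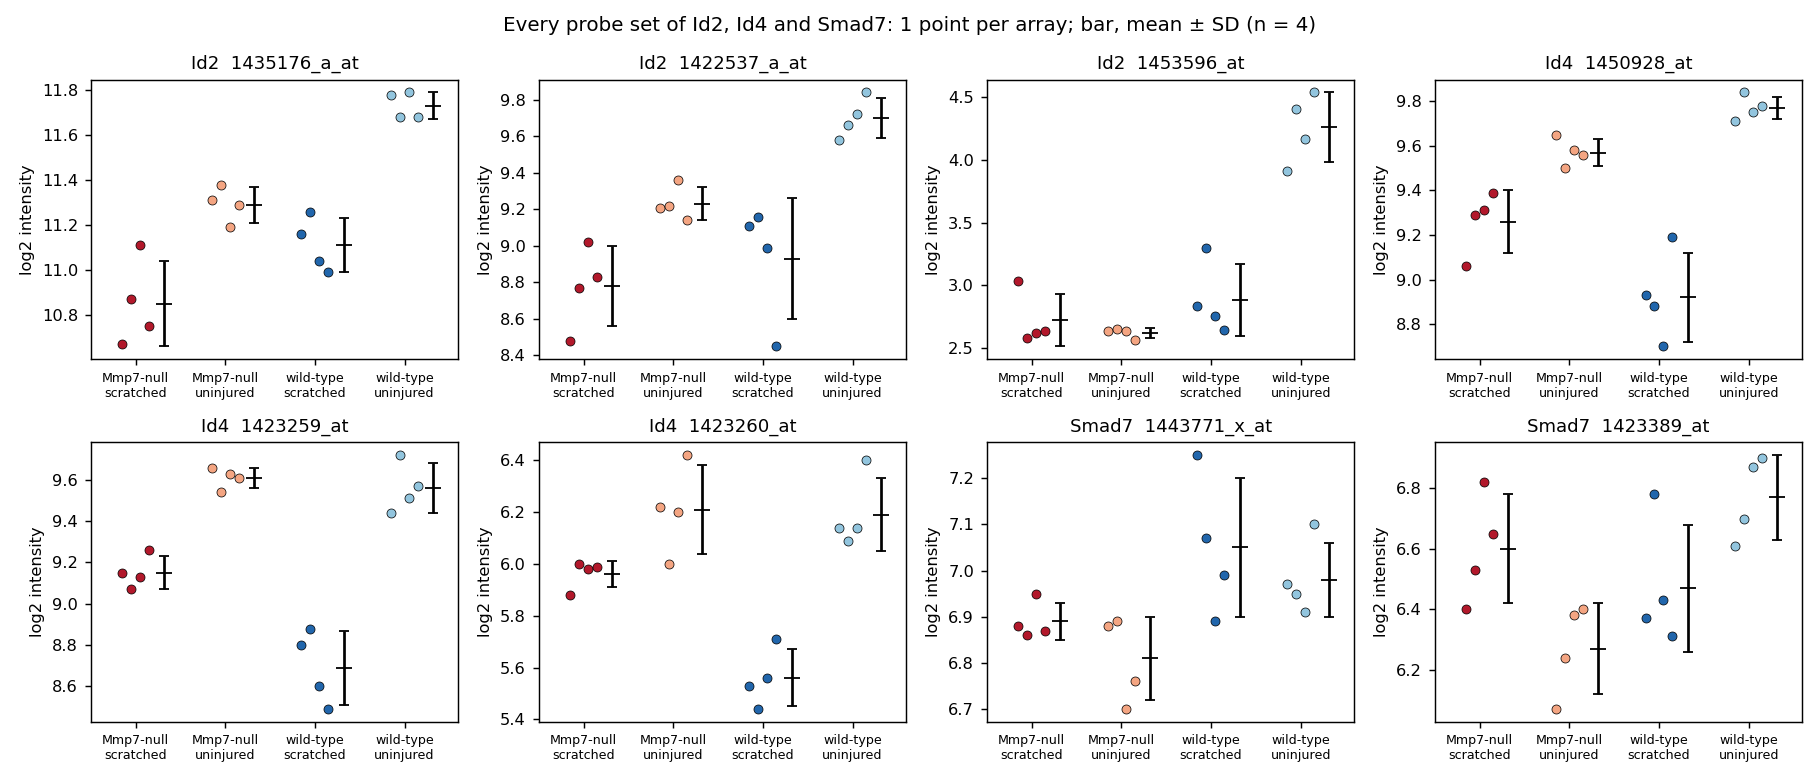
Log2 intensity of every probe set of Id2, Id4 and Smad7 in the 4 groups (vertical axes, each with its own range), with 1 point per array and the mean ± SD of 4 arrays. In all 3 Id4 probe sets the mean of scratched wild-type cultures lies below that of scratched Mmp7-null ones. The dimmest Id2 probe set averages 4.26 in wild-type uninjured cultures and 2.62 to 2.88 elsewhere.

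The rest of the pathway was read from a list of other genes grouped by role, of which 55 were measured. On scratching 3 of the 55 rose and none fell in Mmp7-null cultures, where 4.72% of all genes passed in either direction. In wild-type cultures 3 rose and 3 fell, where 4.85% of all genes passed. The list's median change was -0.01 in Mmp7-null and 0.01 in wild-type cultures, beside -0.02 and 0.01 over all genes. Between genotypes 1 was higher and 6 were lower in uninjured Mmp7-null cultures, beside 4.79% of all genes that passed, and 3 were higher and none lower in scratched ones, beside 6.21%. The 4 signal-carrying Smads (Smad1, Smad4, Smad5 and Smad9) did not pass in any comparison.

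Among ligands and their antagonists the largest change that passed was in Fst (follistatin, which binds activins and some BMPs). It read 7.08, 6.33, 7.13 and 5.75 in scratched wild-type cultures, against 5.32, 4.97, 4.67 and 4.65 in uninjured ones. The groups did not overlap, and Fst rose by 1.67 (SE 0.36, adjusted p = 0.017). The call was lost without wild-type uninjured replicate 4, scratched replicate 1 or scratched replicate 3 (adjusted p of 0.05 to 0.057, the first just above the threshold). In Mmp7-null cultures it was at 1.08 (adjusted p = 0.12), with some overlap. The ligand Bmp5 fell by 0.29 in wild-type cultures (adjusted p = 0.033), and the other 7 ligands did not pass there. Fstl1, a secreted glycoprotein that binds BMP4 and is needed for mouse lung development, was higher in Mmp7-null than in wild-type cultures. The difference was 1.28 uninjured (adjusted p = 0.016) and 1.16 scratched (adjusted p = 0.022, with overlapping groups). The uninjured call was lost without Mmp7-null uninjured replicate 1 (adjusted p = 0.051). The scratched call was lost without Mmp7-null scratched replicate 1, 3 or 4, or wild-type scratched replicate 1 or 2. Nbl1, a BMP antagonist of the DAN family, was lower in uninjured Mmp7-null cultures (-0.45, adjusted p = 0.031).

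Of 9 receptors and coreceptors, the type I receptor Bmpr1b was lower in uninjured Mmp7-null cultures, at 8.47 ± 0.04, against 8.98 ± 0.11 in uninjured wild-type ones (-0.51, adjusted p = 0.01). Rgmb, a BMP coreceptor, fell on scratching in wild-type cultures (-0.38, adjusted p = 0.046) and was higher in scratched Mmp7-null than in scratched wild-type cultures (0.43, adjusted p = 0.02). No other receptor passed.

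Of 8 intracellular regulators 2 rose on scratching in Mmp7-null cultures (median 0.01 on the log2 scale) and 1 rose in wild-type cultures (median 0.06). Pmepa1, a TGF-beta target that dampens Smad signalling, read 10.42, 10.44, 10.71 and 10.36 in scratched Mmp7-null cultures, against 9.59, 9.81, 9.77 and 9.89 in uninjured ones (0.72, SE 0.08, adjusted p = 0.00019). Smurf1, a ubiquitin ligase that targets BMP Smads, rose by 0.60 in Mmp7-null cultures (adjusted p = 0.035), and Skil, a Smad corepressor, rose by 0.43 in wild-type cultures (adjusted p = 0.0024), a call that was lost when the probe sets of a gene were averaged (0.35, adjusted p = 0.18). Before injury Pmepa1 (-0.42, adjusted p = 0.0061) and the corepressor Ski (-0.29, adjusted p = 0.027) were lower in Mmp7-null than in wild-type cultures.

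Hey1, a transcriptional repressor induced by Notch and by BMP, moved against the Id genes. It read 7.67, 7.28, 7.65 and 7.72 in scratched Mmp7-null cultures, against 6.29, 5.94, 6.64 and 6.55 in uninjured ones, and it rose by 1.22 (SE 0.15, adjusted p = 0.00064). In wild-type cultures it read 6.64, 6.90, 6.72 and 7.12 after scratching, against 5.88, 6.16, 6.02 and 6.26 in uninjured ones, and rose by 0.77 (SE 0.15, adjusted p = 0.01). Neither pair of groups overlapped. Hey1 was also higher in scratched Mmp7-null than in scratched wild-type cultures (0.73, adjusted p = 0.012). Atoh8, a factor induced by BMP in mouse liver and endothelium, fell in wild-type cultures by 0.99 (adjusted p = 0.046), and was lower in uninjured Mmp7-null cultures (-1.03, adjusted p = 0.038). Its mean of 2.92 over all arrays is below background. Of the E proteins that Id proteins bind, Tcf4 was lower in uninjured Mmp7-null than in wild-type cultures (-0.30, adjusted p = 0.034), and Tcf3 and Tcf12 did not pass in any comparison.

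The calls of Rgmb on scratching, Bmp5, Atoh8, Smurf1, Nbl1, Ski and Tcf4 were each lost on leaving out some single arrays, and with the technical set as a block. Those of Fstl1, Bmpr1b, Rgmb and Pmepa1 between genotypes were lost with that block as well. Rgmb between scratched genotypes also did not pass without Mmp7-null scratched replicate 2 or 4 or wild-type scratched replicate 3 or 4 (adjusted p from 0.051 to 0.062). With the probe sets of a gene averaged, and in the same comparisons as the calls above, Rgmb between scratched genotypes (0.10, adjusted p = 0.27), Bmpr1b (-0.26, adjusted p = 0.39), Fst (1.17, adjusted p = 0.071), Smurf1 (0.31, adjusted p = 0.21), Bmp5 (-0.29, adjusted p = 0.19), Ski (-0.24, adjusted p = 0.098) and Tcf4 (-0.21, adjusted p = 0.13) did not pass. In the same averages Ski (-0.38, adjusted p = 0.011) and Tcf4 (-0.27, adjusted p = 0.043) passed on scratching in wild-type cultures.

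Without the 3 arrays that stood apart, Rgmb, Bmp5 and Atoh8 lost calls. Rgmb was at -0.26 on scratching in wild-type cultures (adjusted p = 0.18) and at 0.39 between scratched genotypes (adjusted p = 0.053). Bmp5 was at -0.26 on scratching in wild-type cultures (adjusted p = 0.12). Atoh8 was at -1.01 on scratching in wild-type cultures (adjusted p = 0.18) and at -1.03 between uninjured genotypes (adjusted p = 0.067). Fst between uninjured genotypes passed without these arrays (1.21, adjusted p = 0.044) and did not with them (1.21, adjusted p = 0.081). The calls of Hey1 on scratching and of Pmepa1 in Mmp7-null cultures held on leaving out each single array, but without the 3 arrays that stood apart Hey1 did not pass on scratching in wild-type cultures (0.69, adjusted p = 0.081) or between scratched genotypes (0.78, adjusted p = 0.066).

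**Figure D5:**
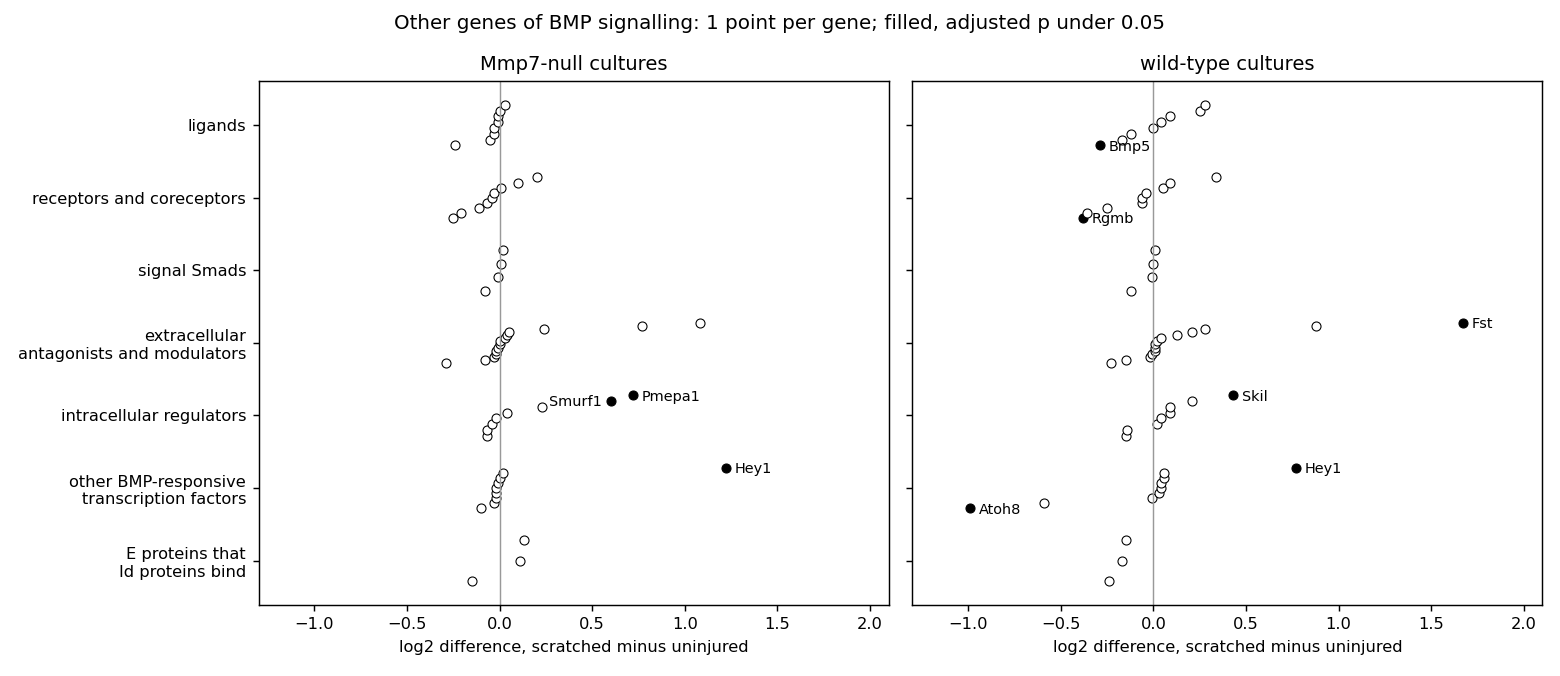
Log2 difference between scratched and uninjured cultures (horizontal axes) for the 55 other genes of BMP signalling, grouped by role, in Mmp7-null cultures on the left and wild-type cultures on the right. Each point is 1 gene and filled, named points passed at an adjusted p under 0.05; Hey1 rose in both panels (1.22 and 0.77).

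The genes whose pattern was most like that of Id1 or Id3 were found by the root mean square difference of log2 values over the 16 arrays, after each gene was centred on its own mean, among 11654 other genes above background. For Id1 they were Clic3, Cd36, Pdlim2, Cldn23 and Osr1, at differences of 0.177 to 0.194 log2 units. For Id3 they were Tns1, Clic5, Akr1c14, Ogn and Akap5, at 0.325 to 0.430. Beside these, the root mean square deviation of Id1 from its own mean was 0.457, and that of Id3 was 0.913. Arrays share group, technical set and quality, so likeness over them is a description only.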

How the data were processed

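The authors deposited 1 table of linear intensities, 1 column per array, and the submitters' processing notes name RMA (version not given in the sources used here). The labels name the Affymetrix 430A 2.0 array, while the 45101 probe sets and the supplied annotation are those of a larger design. Here the intensities were converted to log2 without further normalization. Of the probe sets other than 64 controls, 34945 had 1 gene symbol, 932 several and 9160 none, and only the first were used. Each gene was represented by its brightest probe set. All 16 arrays entered a single linear model, whose terms were the 4 group means (12 residual degrees of freedom), in limma 3.58.1 in R 4.3.3 and moderated by eBayes. P-values were adjusted by Benjamini-Hochberg over all 18193 genes, with a threshold of 0.05, or over all 34945 probe sets where a dimmer probe set is described. No filter on dim genes was applied. The method was tested on simulated data with independent noise and no technical sets. That test therefore does not bear on the alignment of genotype and set. The median standard error of genes above background was 0.10, and the number of arrays limits the precision.

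The 10 genes and all lists were chosen with earlier results of these data known. The rule named all 10 genes with every probe set, each listed pathway gene called in any comparison, and the 5 genes most like Id1 and Id3. The labels do not state that replicate numbers pair the cultures, so the model had no replicate block. Same-numbered deviations correlated at -0.22 to 0.31 over genes. Differently numbered cultures were not set beside them, so these values do not settle whether cultures were paired. The alternatives were a replicate block, a fit on the compared 8 arrays, a filter that drops the 40% of genes with the lowest means, other treatments of probe sets and variance, array weights, other scalings, the spike-in set as a block, removal of 3 arrays and of each array in turn. Values within each set were added after the data were seen.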

Additional observations from a re-analysis of the deposited data

Results flagged for a closer look

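In 12 of 88 groups (22 probe sets in 4 groups of 4 arrays) 1 array lay far from the other 3, by a gap above Dixon's 95% critical share of the range. Chance flags about 1 in 20 groups. Mmp7-null scratched replicate 1 was such an array for Smad6 (6.03, the others from 6.42 to 6.48), the dimmest Id4 probe set (5.88, the others from 5.98 to 6.00), the dimmest Id2 probe set (3.03, the others from 2.58 to 2.63) and a Bmpr1a probe set below background (1.93, the others from 2.49 to 2.52). Wild-type uninjured replicate 4 was high for Id3 (7.99, the others from 7.60 to 7.67) and for the same Id4 probe set (6.40, the others from 6.09 to 6.14), and wild-type uninjured replicate 2 was high for the lead probe set of Bmpr1a (10.03, the others from 9.89 to 9.90).

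The remaining cases were below background. Wild-type scratched replicate 3 was high for the Bmp7 probe sets (2.52, 2.31 and 1.64) and for the dimmest Bmpr1a probe set (2.06), where Mmp7-null scratched replicate 3 was also high (2.08). The scratch responses of the genotypes differed for the dimmest Id2 probe set by 1.47 (Mmp7-null minus wild-type), by the interaction term. That probe set was above background on 6 of 16 arrays.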

How the results depend on the processing

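The counts of the 10 genes that passed were 3 (scratch in Mmp7-null), 6 (scratch in wild-type), 3 (genotype, scratched), 5 (genotype, uninjured) and 0 (difference between scratch responses). Leaving out each array in turn gave 3 to 4, 5 to 6, 1 to 3, 5 to 5 and 0 to 1, the single call of the last being Id4. The count of 1 for genotype in scratched cultures came without wild-type scratched replicate 2. The 8 Mmp7-null arrays alone gave 0 for scratch in place of 3. Array weights gave 5 for genotype in scratched cultures, and 1 for the difference between responses. The mean of probe sets, repeated quantile normalization, arrays centred on their median and removal of the 3 arrays that stood apart also gave 1 for that difference. Adding a term for the spike-in set made both genotype counts 0. Within the Lys set 1 gene passed for scratch in Mmp7-null, and within the Phe set 0 passed in each of the 4 comparisons it allows; these subsets hold 1 to 2 arrays a group, which lowers what they can call. Within the Trpn set, with 3 arrays a group, 5 of the 10 genes passed for scratch in wild-type. With the replicate block the counts were 3, 6, 3, 5 and 0, and it changed no call of the 10 genes. No called value of the 10 genes or of the named pathway genes changed sign under any alternative run.

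Over all genes the count moved by more than 1.5 times under some settings: for scratch in Mmp7-null 859 became 402 with the 8 arrays, 516 and 528 without Mmp7-null uninjured replicate 2 or 3, and 286 and 79 within the sets. For scratch in wild-type 883 became 1405 with array weights, and 204 and 418 within the sets. For genotype in scratched cultures 1130 became 527 with the 8 arrays, 1745 with array weights, 252 with the term for the set and 223 within the Phe set. For genotype in uninjured cultures 872 became 57 with that term, 42 within the Phe set, 1310 without the 3 arrays, and 480 and 534 without replicate 1 of the Mmp7-null or wild-type group. For the difference between responses 24 ranged from 8 to 100.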

Other observations

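A pair of probe sets from this group of genes, that of Atoh8 and the dimmest of Id2, had a group mean above background in wild-type uninjured cultures and in none of the other 3 groups. Atoh8 read 4.11, 4.59, 3.11 and 3.04 there, and between 2.44 and 2.78 on the other 12 arrays. These 2 genes were singled out after their values were seen.

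Of the 10 genes nearest to Id1 and Id3 in pattern, 9 fell on scratching in wild-type cultures (Akap5 did not pass) and 8 in Mmp7-null cultures (Clic5 and Ogn did not pass). In wild-type cultures Akr1c14, an aldo-keto reductase, changed by -1.20 (adjusted p = 1.2e-05), Osr1, a transcription factor of lung development, by -1.05 (adjusted p = 0.00031), Cldn23, a claudin, by -0.81 (adjusted p = 5.9e-05) and Tns1, a focal adhesion protein, by -0.84 (adjusted p = 0.022). They were chosen for their likeness over the same arrays, so these values are a description.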
